A study of Mus musculus with 9 samples.

Results

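Genes of DNA replication and mitosis were compared between intestinal epithelial cells of rescue, knockout and control mouse pups. The list held 44 genes, and 43 of them were measured among the 18193 genes of the arrays. Each gene was read by the probe set that carried its symbol alone and had the highest mean over the 9 arrays. The expression of Ccnb1 was not analysed here. By role, 21 measured genes belong to S phase (origin licensing and the replicative helicase, polymerases and their clamp, and nucleotide supply), 8 to the cyclins, kinases and E2F factor of the G1/S transition, and 14 to mitosis.

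Each genotype was represented by 3 arrays of cells taken on postnatal day 0 from small intestine and proximal colon. Rescue pups were Tfr1 IEC-KO;ROSA26 Tfr1R654A/+, so they lacked Tfr1 in intestinal epithelial cells like the knockout pups and in addition carried the R654A form of Tfr1 on 1 ROSA26 allele. Knockout pups were Tfr1 IEC-KO. Control pups were Tfr1fl/fl, the floxed allele without the deletion. The Tfrc gene encodes Tfr1, through which cells take up iron bound to transferrin. The sources used here give neither the driver of the deletion nor the sex of the pups nor the number of pups per array, so p-values measure the spread between these arrays, which may be technical. The values are log2 RMA values, where a difference of 1 is a doubling of signal, and levels of different genes are not comparable on this scale.

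In the newborn intestine dividing cells lie between the villi and feed the differentiated cells above them. Before S phase the origin recognition complex, Cdc6 and Cdt1 load the Mcm helicase onto DNA, and Cdc45 and the GINS proteins then activate it. D-type cyclins with Cdk4 or Cdk6 release E2F factors, which turn on the replication genes, whereas the mitotic genes are switched on later through a short promoter element, the cell cycle genes homology region (CHR), that is often accompanied by CCAAT boxes. Ribonucleotide reductase supplies the deoxyribonucleotides. Its small subunit, encoded by Rrm2, holds an iron centre that is needed for the reaction.

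Promoter sequences from RefSeq (GRCm38.p6, 250 bases before to 50 after the gene start) were found for 34 of the 44 genes, and 6 are shown as examples. For Mcm5 (chr8:75109259-75109558, plus strand) and Mcm6 (chr1:128359656-128359955, minus strand) capitals mark E2F words, for Cdk1 (chr10:69352863-69353162, minus strand) and Plk1 (chr7:122159185-122159484, plus strand) they mark CHR words, and for Rrm2 (chr12:24708004-24708303, plus strand) they mark a CCAAT box. In Cdk6 (chr5:3343643-3343942, plus strand) no E2F or CHR word was found, so nothing is in capitals.
Mcm5: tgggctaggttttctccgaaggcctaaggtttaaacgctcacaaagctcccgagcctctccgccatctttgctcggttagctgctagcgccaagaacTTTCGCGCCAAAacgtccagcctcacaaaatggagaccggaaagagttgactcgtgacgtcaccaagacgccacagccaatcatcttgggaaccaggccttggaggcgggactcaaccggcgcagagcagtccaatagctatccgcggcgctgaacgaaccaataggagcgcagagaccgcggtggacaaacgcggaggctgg
Mcm6: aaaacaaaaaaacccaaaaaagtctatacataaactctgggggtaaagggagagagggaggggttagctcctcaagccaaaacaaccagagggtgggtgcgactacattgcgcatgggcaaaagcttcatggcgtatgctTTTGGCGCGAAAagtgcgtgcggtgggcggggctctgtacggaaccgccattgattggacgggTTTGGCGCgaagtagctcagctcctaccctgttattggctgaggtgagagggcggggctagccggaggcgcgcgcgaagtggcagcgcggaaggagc
Cdk1: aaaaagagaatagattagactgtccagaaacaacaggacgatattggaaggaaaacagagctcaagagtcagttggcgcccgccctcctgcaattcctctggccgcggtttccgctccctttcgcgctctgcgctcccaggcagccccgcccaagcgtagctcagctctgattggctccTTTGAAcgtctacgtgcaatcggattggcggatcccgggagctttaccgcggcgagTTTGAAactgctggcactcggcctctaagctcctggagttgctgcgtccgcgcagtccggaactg
Plk1: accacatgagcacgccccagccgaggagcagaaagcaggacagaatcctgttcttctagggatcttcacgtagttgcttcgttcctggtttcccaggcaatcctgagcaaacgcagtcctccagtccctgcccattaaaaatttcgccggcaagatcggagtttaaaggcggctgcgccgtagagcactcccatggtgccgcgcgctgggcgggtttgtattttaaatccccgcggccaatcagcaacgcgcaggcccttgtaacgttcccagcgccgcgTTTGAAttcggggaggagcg
Rrm2: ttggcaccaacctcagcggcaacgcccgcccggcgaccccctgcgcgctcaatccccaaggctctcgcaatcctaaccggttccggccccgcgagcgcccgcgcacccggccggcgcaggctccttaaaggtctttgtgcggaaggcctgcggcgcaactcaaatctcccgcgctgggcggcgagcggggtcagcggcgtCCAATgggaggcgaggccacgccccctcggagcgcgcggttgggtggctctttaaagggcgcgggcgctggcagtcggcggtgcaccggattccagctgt
Cdk6: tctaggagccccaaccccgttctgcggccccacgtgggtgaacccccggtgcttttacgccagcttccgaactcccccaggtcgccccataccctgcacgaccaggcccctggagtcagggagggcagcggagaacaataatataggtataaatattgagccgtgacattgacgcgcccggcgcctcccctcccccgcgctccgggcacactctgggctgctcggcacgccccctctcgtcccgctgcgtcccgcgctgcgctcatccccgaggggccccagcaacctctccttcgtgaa

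The words searched on both strands were TTTCGCGC, TTTGGCGC, TTTCCCGC and TTTGCCGC for E2F, TTTGAA and TTCGAA for the CHR, and CCAAT for the CCAAT box. Some overlap: the first run of capitals in the promoter of Mcm6, like the run in that of Mcm5, joins an E2F word on either strand. An E2F word lay in the promoters of 8 of 17 S-phase genes, 1 of 5 G1/S genes and 1 of 12 mitotic genes, against 2.26% of 32851 mouse promoters of the same length. The mitotic gene was Cdk1, whose E2F word, TTTCGCGC, is not in capitals above. A CHR word lay in 3 of 17 S-phase, 0 of 5 G1/S and 10 of 12 mitotic promoters, against 19.2% of all. A CCAAT box lay in 12 of 17 S-phase, 1 of 5 G1/S and 11 of 12 mitotic promoters, against 37.4% of all. The 12 mitotic promoters include that of Ccnb1, which holds CCAAT boxes. A word is a description of the sequence and does not show that a factor binds there.

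Arrays of the same genotype differed widely, and this bears on every value that follows. Arrays of 1 group had correlations of 0.951 to 0.996 across genes, which are not independent replicates. A pair of Tfrc probe sets read 10.7 to 10.9 and 8.65 to 9.07 in rescue arrays, 5.57 to 6.14 and 4.09 to 4.47 in knockout arrays, and 6.06 to 6.29 and 4.56 to 4.72 in control arrays, while the brightest overlapped in all groups, at 10.2 to 11.1, 9.07 to 11.2 and 9.88 to 10.8 in rescue, knockout and control. The deleted exons were not mapped to probes, so these values check the added receptor but not the deletion. Markers of the epithelium were high everywhere: Epcam read 13.002 to 13.29 in rescue, 13.17 to 13.55 in knockout and 12.91 to 13.02 in control arrays. Of 9 epithelial markers 4 rose and 1 fell between knockout and control, with changes from -0.74 to 1.65, where 5.29% of all genes rose and 8.77% fell. Knockout replicates 1 and 2 also had far more signal from fibroblast and smooth muscle markers than knockout replicate 3, with values given beside the results they move with.

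Array by array, the replication and mitosis genes split each genotype rather than separating genotypes. Over the 14 mitotic genes the median lay 0.83, 0.01 and 1.57 above the control mean (log2) in rescue replicates 1, 2 and 3. It lay at 0.996, 0.89 and -0.41 in knockout replicates 1, 2 and 3, and at -0.00, 0.44 and -0.44 in control replicates 1, 2 and 3. Rescue replicate 3 was the highest array of all 9 for 13 of the 14 mitotic genes. The lowest was control replicate 3 for 8 of them and knockout replicate 3 for 5. Of all 18193 genes, rescue replicate 3 was highest for 1685, control replicate 3 lowest for 1003 and knockout replicate 3 lowest for 3111. Rescue replicates 1 and 3 read above every control array for all 14 mitotic genes and rescue replicate 2 for 0. Knockout replicates 1 and 2 read above every control array for 12 each and knockout replicate 3 for 1. Of all 18193 genes, 28.9%, 29.8% and 25.8% read above every control array in rescue replicates 1, 2 and 3, and 31.3%, 30.6% and 37.5% in knockout replicates 1, 2 and 3.

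The 21 S-phase genes were likewise high in rescue replicate 3 and low in knockout replicate 3, but near control in rescue replicate 1 and knockout replicate 1, where the mitotic genes were high. Their median lay 0.02, -0.12 and 0.90 from the control mean in rescue replicates 1, 2 and 3, at 0.11, 0.62 and -0.40 in knockout replicates 1, 2 and 3, and at -0.15, 0.29 and -0.10 in control replicates 1, 2 and 3. Rescue replicate 3 was the highest array for 15 of the 21 and knockout replicate 3 the lowest for 12. Over all 18193 genes these numbers were 1685 and 3111. Knockout replicate 3 read below every control array for 14 of the 21 S-phase genes, or 66.7%, where 37.5% of all genes did so. The mitotic median exceeded the S-phase median by 0.81, 0.13 and 0.67 in rescue replicates 1, 2 and 3. The gap was 0.88, 0.27 and -0.01 in knockout replicates 1, 2 and 3, and 0.14, 0.15 and -0.33 in control replicates 1, 2 and 3. The lead of the mitotic over the S-phase genes was thus widest in knockout replicate 1 and rescue replicates 1 and 3. The arrays of every pair of genotypes overlapped in it.

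**Figure D1:**
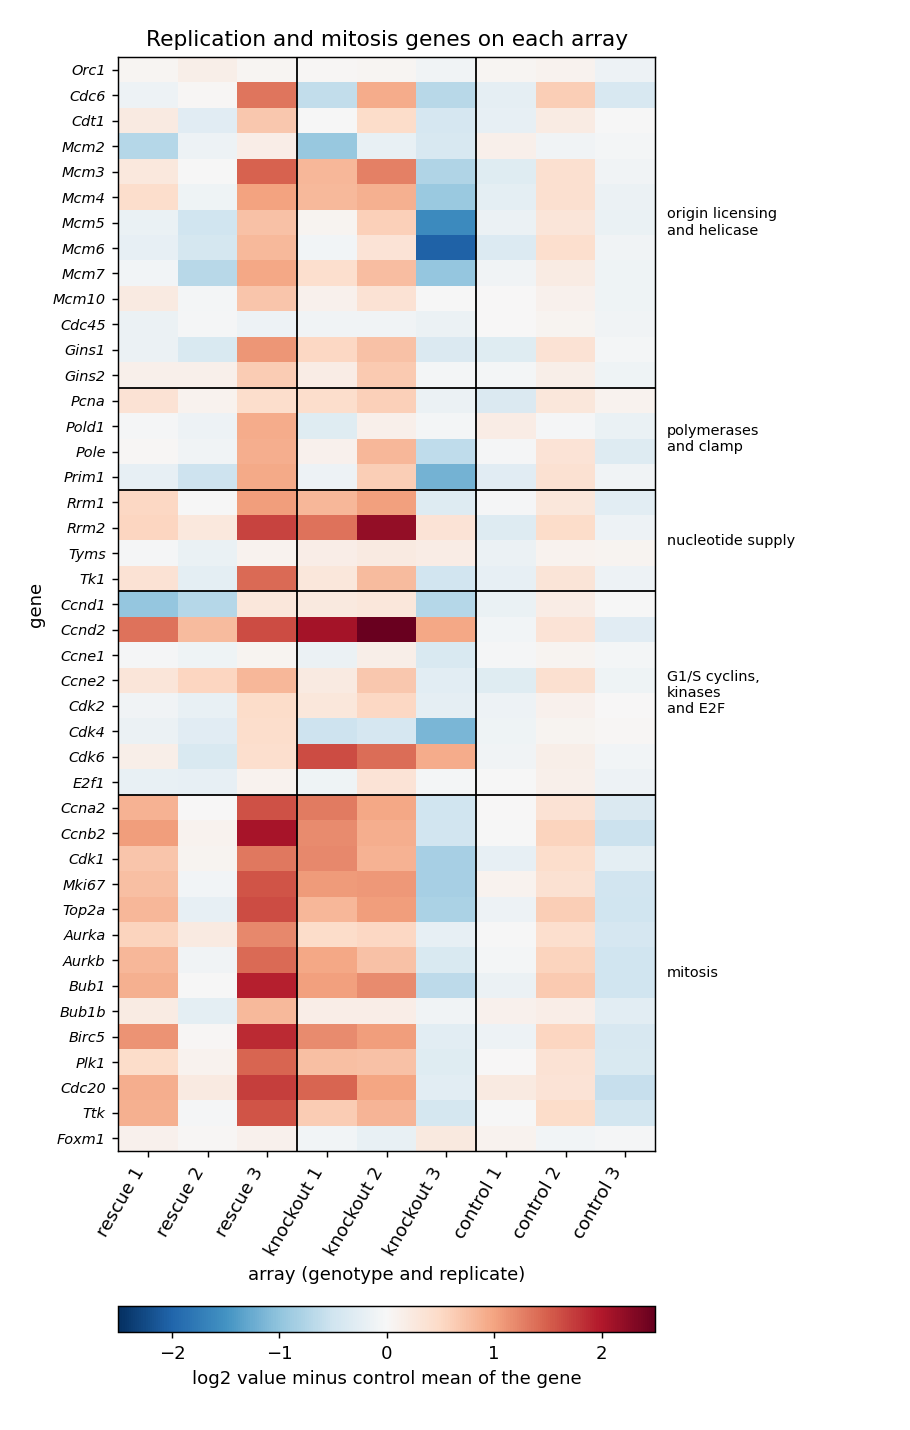
Each row is a gene and each column an array, grouped as rescue, knockout and control, and colour is the log2 value minus the gene's control mean, with red above and blue below. Rescue replicates 1 and 3 and knockout replicates 1 and 2 are red over most mitotic genes, knockout replicate 3 is blue, and Ccnd2 is red in all rescue and knockout arrays.

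The spread within a genotype was large for these genes compared with others on the same arrays. The median standard deviation of a mitotic gene was 0.77 in rescue, 0.84 in knockout and 0.45 in control (log2, n = 3 each). For an S-phase gene it was 0.56, 0.63 and 0.27 in rescue, knockout and control, and over all genes 0.14, 0.23 and 0.10. A typical standard error of a change was therefore 0.51 for a mitotic and 0.39 for an S-phase gene, against 0.15 over all genes, and changes well above their standard error, such as that of Rrm2 given below, could still miss the threshold.

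Markers of other cells, and of crypts, moved partly with these arrays. The median of 12 fibroblast markers lay 0.91, 0.50 and 0.39 above the control mean in rescue replicates 1, 2 and 3, 3.89, 3.22 and 0.26 above it in knockout replicates 1, 2 and 3, and at -0.42, 0.10 and 0.22 in control. Their summed linear signal ranged over 3963 to 6694 in rescue, 4032 to 34279 in knockout and 2453 to 3467 in control arrays. Between knockout and control 3 of 12 passed the test, all higher, where 5.29% of all genes were higher and 8.77% lower. The median of 8 stem and crypt markers lay at -0.11, -0.10 and 0.97 in rescue, 0.73, 1.0004 and -0.15 in knockout and -0.36, 0.51 and -0.18 in control replicates 1, 2 and 3. Among these Olfm4, a marker of crypt base cells, read 9.09, 9.53 and 10.4 in rescue, 10.5, 10.8 and 7.59 in knockout, and 9.28, 10.6 and 9.51 in control. Another of them, Lgr5, read 7.17, 6.34 and 7.73 in rescue, 7.43, 7.46 and 6.23 in knockout, and 6.33, 7.09 and 6.49 in control. None of these 8 markers passed the test in any comparison, where 14.1% of all genes did between knockout and control, 2.31% between rescue and knockout and 0.126% between rescue and control. Knockout replicate 3 was the lowest array for 3 of the 8, Olfm4 among them, and the highest for 1. Of all 18193 genes it was lowest for 3111 and highest for 3857. Its list median lay within the range of the control arrays. In such bulk samples fewer dividing cells and less transcript per cell cannot be told apart, and the part of fibroblasts and of crypt content in the levels of these genes was not tested. The fibroblast marker mean, used below as a covariate, was 10.8, 10.3 and 7.71 in knockout replicates 1, 2 and 3. It was 7.83 to 8.34 in rescue and 6.95 to 7.61 in control arrays. Within genotypes it thus mainly set knockout replicate 3 apart, and a fit with it cannot separate fibroblast signal from other differences of that array.

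**Figure D2:**
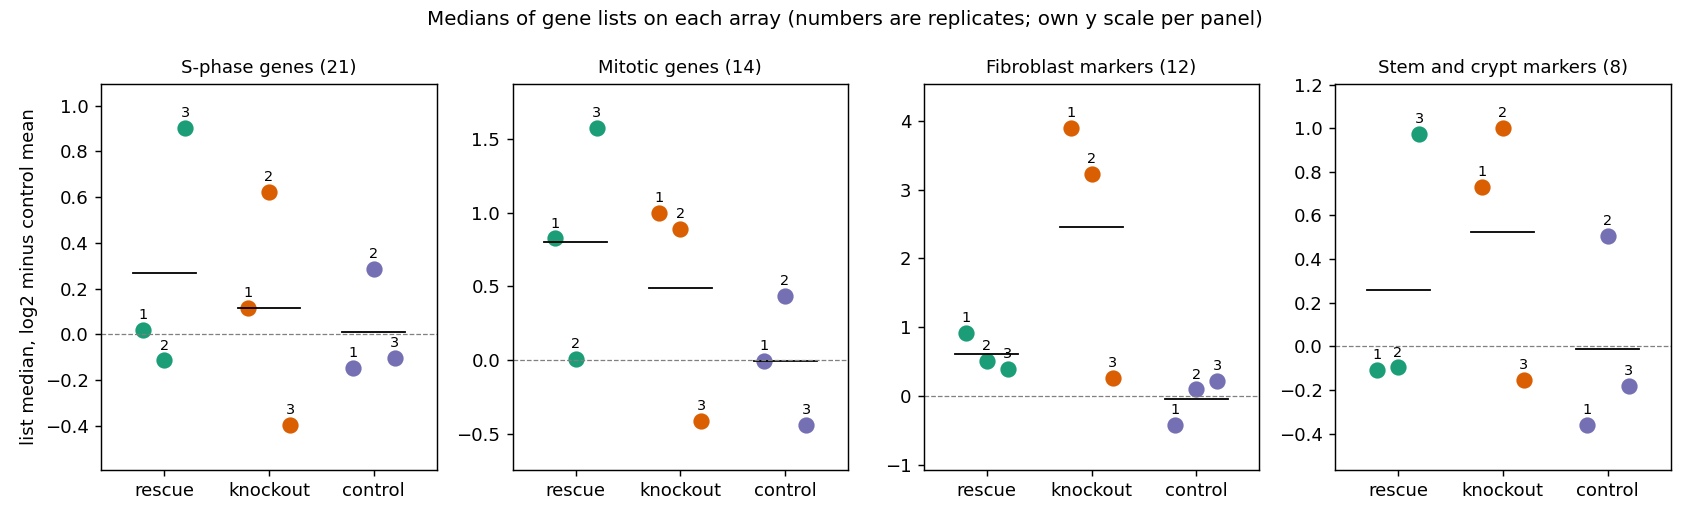
Points are the list medians of single arrays (log2, minus the control mean), numbered by replicate, for S-phase genes, mitotic genes, fibroblast markers and stem and crypt markers, and the bar is the mean of 3 arrays. Knockout replicates 1 and 2 are high in all panels except that knockout replicate 1 is at 0.11 for S-phase genes, and rescue replicate 3 is high for S-phase, mitotic and crypt genes while its fibroblast median is 0.39.

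The summed signal of 8 smooth muscle markers ranged over 819 to 1173 in rescue, 797 to 9437 in knockout and 637 to 673 in control arrays, with 0 of 8 past the test between knockout and control. Over all genes 14.1% passed in that comparison, 5.29% higher and 8.77% lower, and the marker counts below stand beside these shares. For 8 markers of neurons and glia the range was 871 to 948, 1153 to 3007 and 844 to 861 in rescue, knockout and control, and 1 of 8 passed. For 8 endothelial markers it was 663 to 886, 887 to 2045 and 520 to 936, and 1 of 8 passed. For 11 leukocyte markers it was 6289 to 9118, 6302 to 8316 and 9878 to 12525, and 2 rose while 2 fell. Csf1r was the brightest of these markers on every array. The median of the 11 leukocyte markers lay 0.01, 0.07 and 0.02 from the control mean in rescue and 0.83, 0.39 and 0.13 from it in knockout replicates 1, 2 and 3, with a positive change between knockout and control for 8 of 11. Proliferating red cell precursors were looked for with 6 erythroid markers, whose summed signal was 355 to 391, 375 to 518 and 341 to 369, with 0 of 6 past the test and 5 of 6 among the dimmest 40% of genes. For 11 markers of differentiated enterocytes the range was 133679 to 139516 in rescue, 118558 to 140860 in knockout and 135244 to 138693 in control arrays. Of these 11, 0 rose and 1 fell between knockout and control. Between rescue and knockout 1 rose and 0 fell, where 1.23% of all genes rose and 1.08% fell.

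The comparison of knockout with control asks how the cell cycle genes stand when the epithelium lacks Tfr1. Cyclin D2 and Cdk6, partners in the G1 kinase, rose in knockout cells, and no S-phase or mitotic gene passed the test. In all, 2 of 43 genes rose and 0 fell, by limma with an adjusted p under 0.05, while 5.29% of all genes rose and 8.77% fell. The listed genes were thus called no more often than genes in general. At an unadjusted p under 0.05 the number was 4 of 43, against 30.1% of all genes. The groups did not overlap for 3 genes that were higher (Ccnd2, Cdk6 and Tyms) and 3 that were lower (Mcm2, Cdc45 and Cdk4), against 12.7% and 19.7% of all genes, and for 6 of 43 in either direction, against 32.4%. The median change was 0.10 for S-phase and 0.42 for mitotic genes, against -0.04 over all genes. Without knockout replicate 2 the S-phase median was -0.10.

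Ccnd2, which encodes cyclin D2, read 11.13, 10.55 and 11.40 in rescue replicates 1, 2 and 3, 11.85, 12.23 and 10.74 in knockout replicates 1, 2 and 3, and 9.70, 10.11 and 9.49 in control replicates 1, 2 and 3. Every rescue and every knockout array lay above every control array, and rescue and knockout arrays overlapped. Between knockout and control Ccnd2 rose by 1.84 ± 0.38 (limma standard error, 3.58-fold, adjusted p = 0.016). Of its 7 probe sets, 6 passed in a limma fit of single probe sets, with changes of 1.56 to 2.00, and the dimmest changed by 1.17 (adjusted p = 0.094). With the fibroblast marker mean of each array as a covariate the change was 0.91 and did not pass (adjusted p = 0.18). The rise also missed the threshold without control replicate 1 (adjusted p = 0.061), control replicate 3 (0.070) or knockout replicate 1 (0.050, rounded from just above the threshold).

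Cdk6, one of the kinases that D-type cyclins activate, read 7.93, 7.39 and 8.19 in rescue, 9.41, 9.17 and 8.70 in knockout and 7.70, 7.93 and 7.70 in control replicates 1, 2 and 3. All knockout arrays lay above all rescue and all control arrays, which overlapped each other. Between knockout and control Cdk6 rose by 1.32 ± 0.23 (2.49-fold, adjusted p = 0.0091), and it passed in each of the 9 fits that left out 1 array. With the fibroblast covariate the change was 0.82 and did not pass (adjusted p = 0.099). A dimmer probe set gave 0.92 (adjusted p = 0.021) and the dimmest of the 3 gave 0.22 (adjusted p = 0.38).

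Cdk4, the other kinase of D-type cyclins, went the other way. It read 9.48, 9.33 and 10.05 in rescue, 9.09, 9.18 and 8.48 in knockout and 9.51, 9.69 and 9.64 in control replicates 1, 2 and 3. All knockout arrays lay below all rescue and control arrays, by -0.70 ± 0.23 from control on average, but the change did not pass (adjusted p = 0.079). Its 3 probe sets gave -0.70 to -0.85. Ccnd1, which encodes cyclin D1, read 7.43, 7.69 and 8.68 in rescue, 8.63, 8.67 and 7.67 in knockout and 8.22, 8.58 and 8.38 in control, and the groups overlapped (change -0.07 ± 0.36, adjusted p = 0.93).

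The remaining G1/S genes differed little. The E-type cyclins, which with Cdk2 drive entry into S phase, had changes between knockout and control of -0.13 ± 0.14 for Ccne1 and 0.21 ± 0.27 for Ccne2 (adjusted p = 0.61 and 0.66). Cdk2 had 0.20 ± 0.22 (adjusted p = 0.62) and the transcription factor gene E2f1 0.06 ± 0.15 (adjusted p = 0.84). The 95% interval for E2f1 was -0.28 to 0.40, so a larger shift than that lies outside it.

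**Figure D3:**
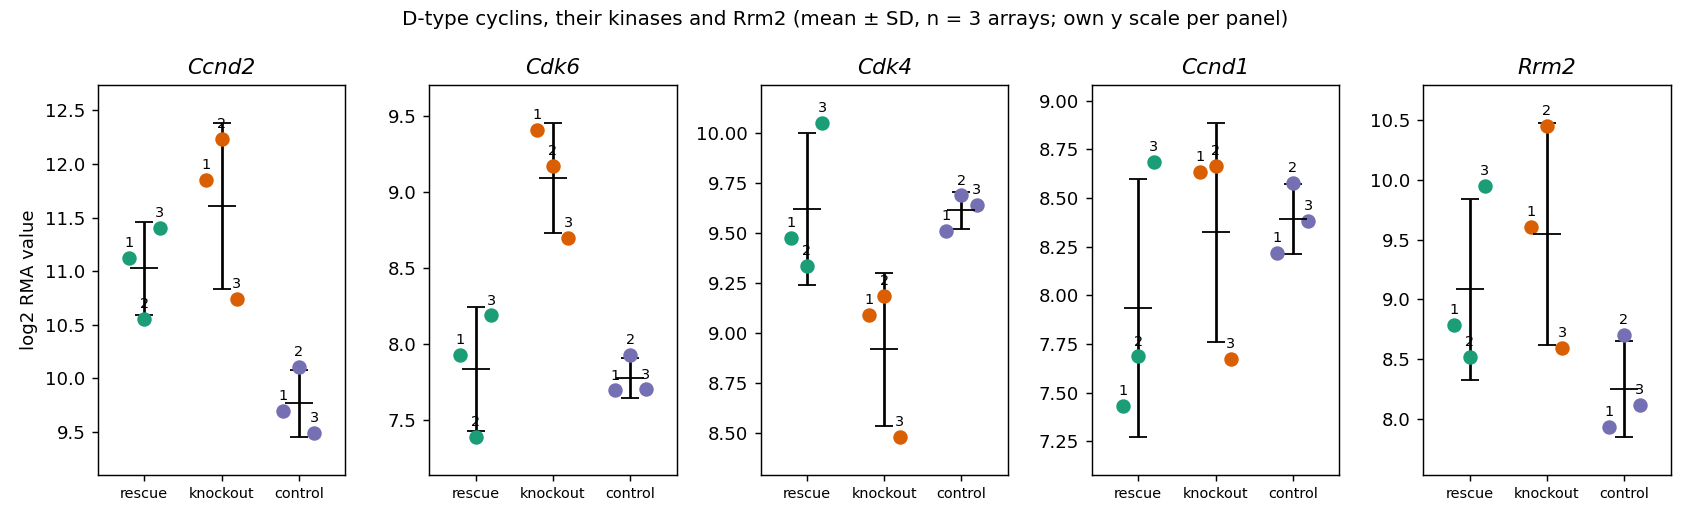
Log2 RMA values of Ccnd2, Cdk6, Cdk4, Ccnd1 and Rrm2 in single arrays, numbered by replicate, with the mean and standard deviation of 3 arrays, each panel on its own scale. Knockout arrays lie above control arrays for Ccnd2 and Cdk6 and below them for Cdk4, and rescue arrays lie with control for Cdk6 and Cdk4 but above it for Ccnd2.

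The genes of origin licensing and the helicase had 0 of 13 past the test between knockout and control, where 14.1% of all genes passed. Their changes ran from -0.58 for Mcm6 to 0.44 for Mcm3. Mcm6, a subunit of the helicase, read 8.74, 8.49 and 9.75 in rescue, 8.87, 9.29 and 6.92 in knockout and 8.60, 9.37 and 8.84 in control replicates 1, 2 and 3. The 6.92 of knockout replicate 3 stood far below the other 8 arrays. Mcm5 showed the same array apart, at 7.47 in knockout replicate 3, 9.14 and 9.66 in knockout replicates 1 and 2, 8.57 to 9.80 in rescue and 8.90 to 9.37 in control. Mcm3 was high in knockout replicates 1 and 2 (8.54 and 8.96), with 6.95 in knockout replicate 3, 7.97, 7.70 and 9.18 in rescue, and 7.40 to 8.10 in control. Mcm2 differed from the other helicase subunits in its order over arrays, since knockout replicate 1 was its lowest. It read 8.87, 9.45 and 9.74 in rescue, 8.63, 9.39 and 9.18 in knockout and 9.71, 9.49 and 9.53 in control (change -0.51 ± 0.25, adjusted p = 0.21).

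For several licensing and activation genes the range over arrays differed between probe sets, in either direction. The brightest probe sets of Orc1, the ATP-binding subunit of the origin recognition complex, and of Cdc45 spanned 0.28 and 0.23 over the 9 arrays, and their second brightest 1.52 and 0.67. For Gins2, a GINS subunit, the values were 0.77 and 1.94. Gins1 went the other way, with 1.48 on its brightest and 0.40 on its second brightest probe set. The Orc1 promoter held an E2F word like those shown for Mcm5 and Mcm6. With the second brightest probe set for each gene that has more than 1, the members called between knockout and control were again Ccnd2 and Cdk6. That fit called 11% of all genes.

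Polymerases and their clamp had 0 of 4 past the test between knockout and control, where 14.1% of all genes passed. With so few genes the count says little. Pcna, the sliding clamp, read 11.05, 10.78 and 11.12 in rescue, 11.13, 11.28 and 10.54 in knockout and 10.33, 10.98 and 10.77 in control replicates 1, 2 and 3. The groups overlapped (change 0.29 ± 0.23, adjusted p = 0.44). Pold1 and Pole, the catalytic subunits of the replicative polymerases, had changes of -0.07 and 0.10, and the primase gene Prim1 had -0.23.

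Rrm2 was the S-phase gene with the largest difference between knockout and control. It read 8.79, 8.52 and 9.95 in rescue, 9.61, 10.45 and 8.59 in knockout and 7.93, 8.71 and 8.12 in control replicates 1, 2 and 3. Knockout and control overlapped, because knockout replicate 3 lay below control replicate 2, and the change of 1.30 ± 0.50 (2.46-fold) did not pass (adjusted p = 0.12, unadjusted p = 0.031). Its 3 probe sets gave 1.30, 1.32 and 0.62. Rrm1, the large subunit of the same enzyme, read 8.62, 8.09 and 9.13 in rescue, 8.94, 9.13 and 7.78 in knockout and 8.07, 8.38 and 7.84 in control, with a change of 0.52 ± 0.38 (adjusted p = 0.41). Rrm2b, which encodes the alternative small subunit, had 0.07 ± 0.09 (adjusted p = 0.71). Thymidine kinase, Tk1, had 0.20 ± 0.44 (adjusted p = 0.82). Tyms, thymidylate synthase, was read only by dim probe sets, the brightest at 4.06 to 4.44 over all arrays, so its values say little about its level.

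Since S-phase genes moved together from array to array, each was also set against the median of the other 20 S-phase genes on the same array, a measure chosen after the values were seen. Rrm2 lay 0.54, 0.39 and 0.84 above that median in rescue replicates 1, 2 and 3 and 1.25, 1.59 and 0.75 above it in knockout replicates 1, 2 and 3. In control replicates 1, 2 and 3 it lay at -0.18, 0.17 and -0.03. All rescue and all knockout arrays thus lay above all control arrays, including knockout replicate 3, in which the S-phase genes were low. Against the same median 6.28% of all genes lay higher in every knockout than in every control array, and 0.605% higher in every rescue than in every control array. Rrm2 was the 1 S-phase gene with higher values in all knockout arrays, and Mcm6 the 1 with lower values. Mcm6 lay at -0.21, -0.29 and -1.63 in knockout against -0.19, 0.14 and 0.01 in control, where 6.91% of all genes lay lower. Its groups were thus barely apart, at -0.21 in knockout replicate 1 and -0.19 in control replicate 1. Between knockout and control S-phase genes therefore separated no more often than genes in general, in either direction. The shares of all genes are a loose yardstick, because the S-phase median was also subtracted from genes outside the S-phase list. Between rescue and control Mcm3, like Rrm2, lay higher and Mcm5 lower without overlap, against 0.605% of all genes higher and 4.52% lower. The groups of Mcm3 were barely apart, at 0.1138 in rescue replicate 2 and 0.1120 in control replicate 2. Between rescue and knockout 0 S-phase genes separated, against 0.451% of all genes higher and 4.17% lower.

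A fit with the mean of 73 other cell cycle genes of the array as a covariate was also added after the data were seen. It adjusts for shifts of cell cycle genes on the same arrays, so it is not independent of the offset. The 73 genes include E2f8, Espl1 and Ect2, which were themselves called between knockout and control, as given below. In the covariate fit Rrm2 rose by 1.09 ± 0.18 between knockout and control (adjusted p = 0.0084), Ccnd2 by 1.69 ± 0.16 (adjusted p = 0.0013) and Cdk6 by 1.23 ± 0.12 (adjusted p = 0.0014). Cdk4 fell by 0.79 ± 0.09 (adjusted p = 0.0025), and Mcm6 fell by 0.82 ± 0.23 (adjusted p = 0.049). These are 3 of 43 higher and 2 lower, where 6.48% of all genes were higher and 10.2% lower. Between rescue and knockout the same fit called 1 gene higher, Cdk4, and 2 lower, Ccnd2 and Cdk6, where 1.54% of all genes were higher and 1.5% lower.

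**Figure D4:**
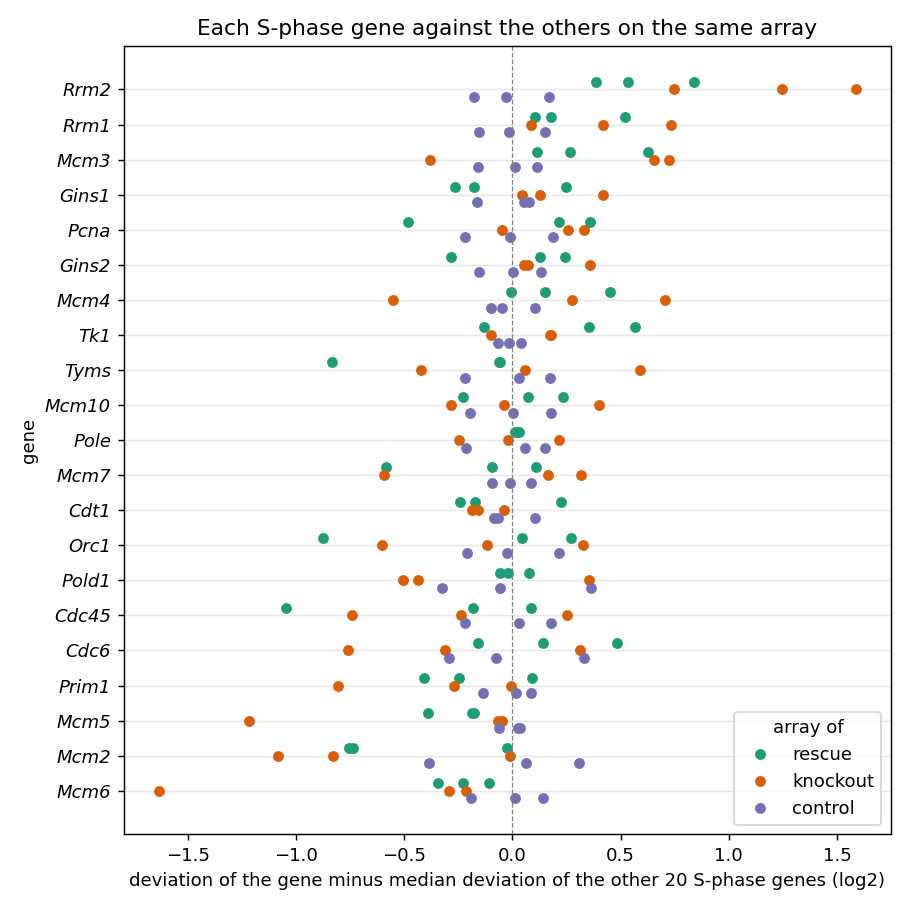
For each S-phase gene, points give the deviation from its control mean less the median deviation of the other 20 S-phase genes on the same array (log2), coloured by genotype. Rrm2 is at the top, with knockout points between 0.75 and 1.59, rescue points between 0.39 and 0.84 and control points between -0.18 and 0.17.

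Of the 14 mitotic genes 0 passed the test between knockout and control, where 14.1% of all genes did. For 0 of the 14 did the groups separate, against 32.4% of all genes. Mki67, the common marker of dividing cells, read 9.58, 8.75 and 10.39 in rescue, 9.89, 9.90 and 7.99 in knockout and 8.91, 9.21 and 8.34 in control replicates 1, 2 and 3. Knockout arrays held both values above and a value below all control arrays. The change was 0.44 ± 0.57 (adjusted p = 0.68), with a 95% interval of -0.87 to 1.74. Cdk1, the kinase that starts mitosis, read 8.94, 8.32 and 9.58 in rescue, 9.45, 9.12 and 7.41 in knockout and 8.05, 8.70 and 8.01 in control, with a change of 0.41 ± 0.53 (adjusted p = 0.67). Its cyclin partner Ccnb2 read 7.77, 6.81 and 8.78 in rescue, 7.91, 7.64 and 6.24 in knockout and 6.71, 7.28 and 6.18 in control, with a change of 0.53 ± 0.57 (adjusted p = 0.60). The pattern over arrays was alike for these genes: rescue replicate 3 highest, rescue replicate 2 near control, knockout replicate 3 low.

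Among regulators of the spindle, Cdc20, the activator of the anaphase-promoting complex, had the largest change of a mitotic gene. It read 9.38, 8.70 and 10.20 in rescue, 9.93, 9.46 and 8.21 in knockout and 8.70, 8.82 and 7.91 in control (change 0.72 ± 0.51, adjusted p = 0.39). The spindle checkpoint kinase gene Bub1 read 7.10, 6.20 and 8.16 in rescue, 7.24, 7.39 and 5.56 in knockout and 6.06, 6.87 and 5.71 in control (change 0.52 ± 0.61). Birc5, which encodes survivin of the chromosomal passenger complex, had 0.65 ± 0.52, and Aurkb, the kinase of that complex, 0.44 ± 0.47. Changes of the mitotic kinases Plk1, Aurka and Ttk were 0.40, 0.25 and 0.35, and those of cyclin A2, Ccna2, and topoisomerase II alpha, Top2a, 0.59 and 0.36. Foxm1, a transcription factor of the mitotic programme, was flat on its brightest probe set (7.17 to 7.60 over all arrays), while its second brightest spanned 1.22, with 6.94, 6.57 and 7.13 in rescue, 6.53, 6.53 and 5.91 in knockout and 6.43 to 6.49 in control. Bub1b, another checkpoint kinase gene, likewise spanned 1.08 on the brightest and 2.10 on the next probe set.

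**Figure D5:**
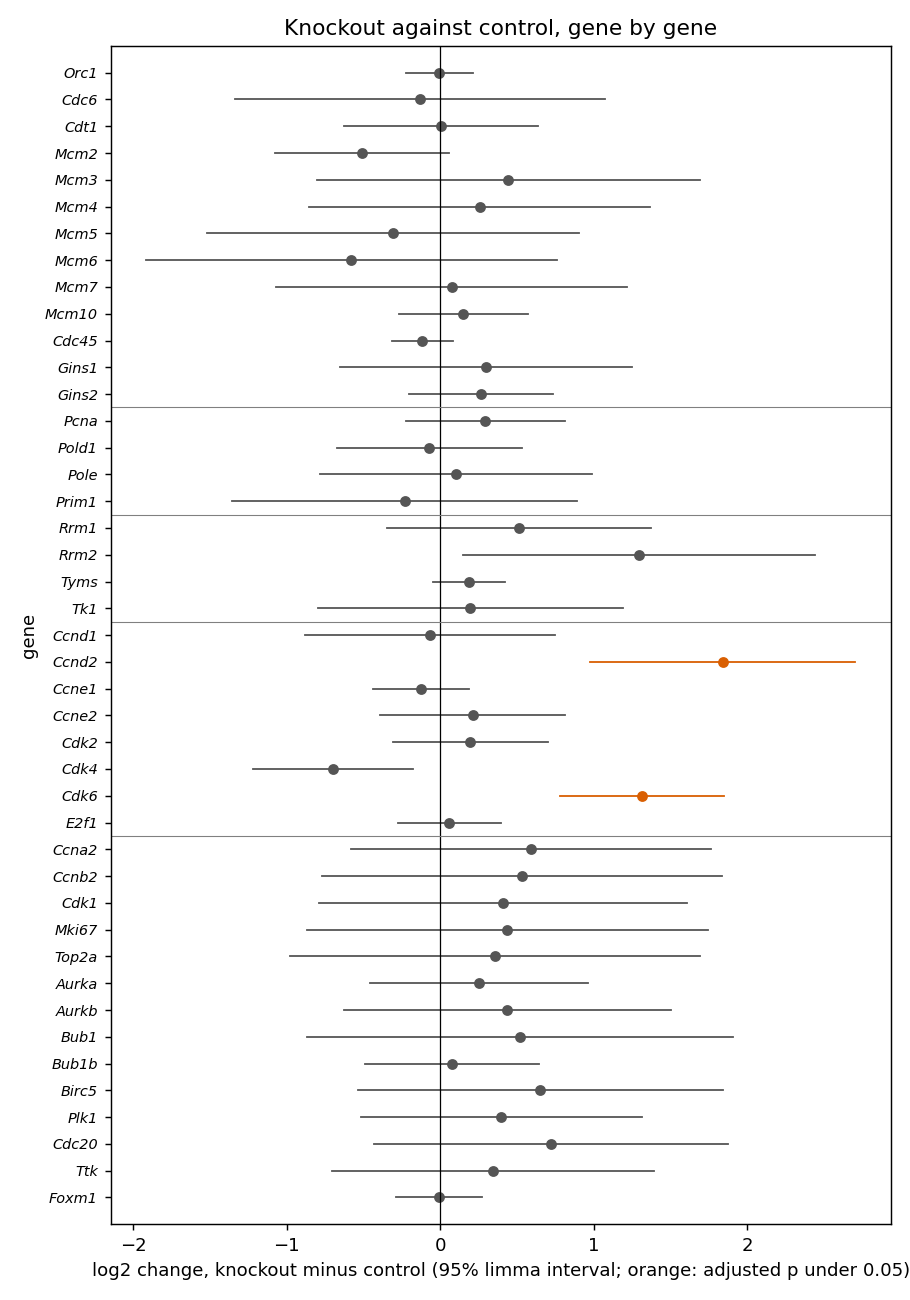
Points are log2 changes between knockout and control for the 43 genes, ordered by role, and lines are 95% limma intervals. Ccnd2 (1.84) and Cdk6 (1.32) are the 2 genes past the threshold, and the intervals of all 14 mitotic genes include 0.

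The knockout values depend on which knockout arrays are used. Without knockout replicate 3 the median change between knockout and control was 0.33 for S-phase and 0.98 for mitotic genes, and 4 of 43 genes rose (Ccnd2, Cdk6, Rrm2 and Rrm1) and 0 fell, where 12.8% of all genes rose and 14.7% fell. Rrm2 then rose by 1.77 ± 0.44 (adjusted p = 0.021) and Rrm1 by 0.93 ± 0.28 (adjusted p = 0.043). With the knockout represented by replicate 3 alone, the medians were -0.40 for S-phase and -0.41 for mitotic genes, and the fit called 0 of 43 genes higher and 2 lower (Mcm6 and Cdk4), where 5.82% of all genes were higher and 8.26% lower. A lone array has no spread of its own, and its spread is assumed there to be that of the other groups. Ccnd2 and Cdk6 lay 0.97 and 0.92 above control without passing (adjusted p = 0.11 and 0.077). With the fibroblast marker mean as a covariate the medians were -0.42 and -0.51, 0 genes rose and 2 fell (Mcm6 and Cdk4), where 4.33% and 6.34% of all genes did. Since that covariate mainly sets knockout replicate 3 apart from the other knockout arrays, this fit is not independent of those above.

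The comparison of rescue with knockout asks which of these genes differ once the R654A receptor is added to the knockout. Cdk6 fell in rescue cells, by 1.26 ± 0.23 on the log2 scale (2.39-fold, adjusted p = 0.036), and was the 1 gene of 43 called, with 0 higher. Over all genes 1.23% rose and 1.08% fell, 2.31% in all. An unadjusted p under 0.05 was reached by 2 of 43, against 18.9% of all genes. The call held in 1 of the 9 fits that left out 1 array (adjusted p up to 0.092 elsewhere), although rescue and knockout arrays did not overlap. Cdk4 lay 0.70 ± 0.23 higher in rescue, again without overlap and without passing (adjusted p = 0.15). Ccnd2 lay at -0.58 ± 0.38 (adjusted p = 0.45) and Rrm2 at -0.46 ± 0.50 (adjusted p = 0.68). The median change was 0.14 for S-phase and 0.30 for mitotic genes, against 0.04 over all genes. All 14 mitotic genes had a positive change, of 0.09 to 0.53, and 0 of them passed, so no difference was detectable with the spread of these arrays. Without knockout replicate 3 the mitotic median was -0.12 and without rescue replicate 3 it was -0.07, so its direction rests on those arrays. The S-phase median was -0.17 and -0.09 in the same fits. In 1 of 43 genes rescue lay wholly above knockout (Cdk4) and in 2 wholly below (Cdk6 and Tyms), against 10.6% and 7.5% of all genes, or 18.1% in either direction. Without knockout replicate 3, 0 genes rose and 2 fell (Ccnd2 and Cdk6), where 6.61% of all genes rose and 8.74% fell. With that array as the lone knockout sample, whose spread is again assumed from the other groups, the fit called 0 higher and 0 lower, where it called 3.2% and 2.83% of all genes. With the fibroblast covariate Cdk4 rose and 0 fell, where 3.01% and 2.39% did.

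Between rescue and control 0 of 43 genes passed, as did 0.126% of all genes (0.055% higher and 0.0715% lower), and 1 of 43 reached an unadjusted p under 0.05, against 6.62% of all genes. That gene was Ccnd2, which lay 1.26 ± 0.38 higher in rescue (2.39-fold, adjusted p = 0.42, unadjusted p = 0.0095), and which was also the 1 gene with separated groups, where 6.74% of all genes were higher in every rescue array. Cdk6 (0.06 ± 0.23) and Cdk4 (0.01 ± 0.23) had group means close to control, with 95% intervals of -0.47 to 0.59 and -0.51 to 0.53. The median change was 0.26 for S-phase and 0.75 for mitotic genes, against -0.01 over all genes, and all 14 mitotic genes had a positive change, the largest being Ccnb2 (1.06 ± 0.57, adjusted p = 0.90) and Birc5 (1.01 ± 0.52, adjusted p = 0.88). Without rescue replicate 3 the mitotic median was 0.38, and without rescue replicate 2 it was 1.20, so single arrays set its size. Without rescue replicate 3 the S-phase median was -0.04. The 3 comparisons share arrays pairwise, so their values are not independent of each other.

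Further genes of replication and mitosis came from lists beyond the 44. Of 35 other S-phase genes measured, 0 rose and 1 fell between knockout and control, and of 38 other mitotic genes 1 rose and 1 fell, where 14.1% of all genes were called in either direction. The S-phase gene was E2f8, a repressor among the E2F factors, which is itself an E2F target. It read 9.85, 9.52 and 10.35 in rescue, 7.87, 8.68 and 8.19 in knockout and 10.34, 10.54 and 10.21 in control replicates 1, 2 and 3. All knockout arrays lay below all others. E2f8 fell by 2.11 ± 0.25 between knockout and control (4.33-fold, adjusted p = 0.0020) and rose by 1.66 ± 0.25 between rescue and knockout (adjusted p = 0.018). On its second brightest probe set the changes were -0.48 between knockout and control, still past the threshold, and 0.35 between rescue and knockout (adjusted p = 0.21). The rise in rescue also missed without rescue replicate 1 (adjusted p = 0.053) or rescue replicate 3 (0.054). Its order over arrays thus differed from that of the S-phase genes above, which were high in knockout replicate 2.

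Espl1, which encodes separase, the protease that splits sister chromatids, also fell in knockout cells. It read 7.65, 7.37 and 8.06 in rescue, 6.999, 7.24 and 6.88 in knockout and 8.65, 8.45 and 8.29 in control, a change of -1.42 ± 0.19 (2.67-fold, adjusted p = 0.0028). Knockout arrays lay below rescue arrays and these below control arrays. The change between rescue and knockout was 0.65 ± 0.19 and did not pass (adjusted p = 0.12). Ect2, a regulator of cytokinesis, rose by 1.13 ± 0.30 in knockout cells (adjusted p = 0.041), reading 8.59, 7.84 and 9.15 in rescue, 9.03, 8.98 and 8.78 in knockout and 7.91, 8.04 and 7.47 in control. It passed in 3 of the 9 fits that left out 1 array (adjusted p up to 0.14). The medians were -0.02 for other S-phase and 0.26 for other mitotic genes.

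Among inhibitors of the cell cycle Cdkn1a, Btg2 and Ccng1 rose in knockout cells and Cdkn1c fell. Of 15 genes, 4 rose and 1 fell between knockout and control, where 5.29% of all genes rose and 8.77% fell. Between rescue and knockout 0 of 15 rose and 2 fell, where 1.23% of all genes rose and 1.08% fell. Cdkn1a, which encodes the kinase inhibitor p21, read 11.20, 10.72 and 10.45 in rescue, 12.26, 12.22 and 11.79 in knockout and 10.02, 9.45 and 9.74 in control replicates 1, 2 and 3. Rescue arrays lay between knockout and control arrays with no overlap. Cdkn1a rose by 2.35 ± 0.23 between knockout and control (5.10-fold, adjusted p = 9.4e-04) and fell by 1.30 ± 0.23 on the log2 scale between rescue and knockout (adjusted p = 0.030). The antiproliferative gene Btg2 rose by 1.39 ± 0.17 (adjusted p = 0.0023) and Ccng1, a cyclin induced by p53, by 1.06 ± 0.14 (adjusted p = 0.0028), and Ccng1 fell by 0.69 ± 0.14 between rescue and knockout (adjusted p = 0.044). Cdkn1c, which encodes the inhibitor p57, fell by 1.29 ± 0.23 between knockout and control (2.44-fold, adjusted p = 0.0092), reading 12.03, 11.62 and 11.50 in rescue, 11.25, 10.66 and 10.34 in knockout and 11.96, 11.98 and 12.18 in control. Cdkn1a, Btg2, Ccng1 and Cdkn1c passed between knockout and control in all 9 fits that left out 1 array, while the falls of Cdkn1a and Ccng1 in rescue held in 4 and 1 of 9.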

How the data were processed

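RNA of P0 mouse intestinal epithelial cells, detached with 2 mM EDTA for 30 min and passed through a 70 µm mesh, was hybridised to 9 one-colour Affymetrix arrays, 3 per genotype. The deposited values are log2 expression values per probe set, made by the authors with RMA, and Partek 6.5 is also named, per the submitters' processing notes. What each tool did, how background was treated and whether probes were filtered is not given in the sources used here. Of 45101 probe sets, 34945 carried 1 gene symbol, and each of 18193 genes was represented by its brightest probe set, judged by the mean of the 9 arrays. Array medians lay between 5.93 and 6.00, and no further normalization was applied. Arrays give no read depth, and the number of arrays limits the precision.

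One limma model (limma 3.58.1 in R 4.3.3, with tables read by version 1.17.8 of the data.table package) was fitted over all genes and 9 arrays with the genotype as factor, and p-values were adjusted by Benjamini-Hochberg over all genes of each comparison. Errors are limma standard errors unless given as SD. The scripts were tested on simulated data. The members and lists were chosen with earlier results of these data known. Any member could be named, and of the other S-phase, mitotic and inhibitor lists up to 4 genes of smallest p past the threshold, with Rrm2b and Cdkn1a always. Of marker lists the median per array and first symbols could be named, and Olfm4 is among these. Csf1r was named outside this rule. The cell cycle covariate and the offset from the S-phase median were chosen after the values were seen. Alternatives were other probe set rules, quantile normalization, a filter on dim genes, array weights, a variance trend, the replicate number as a block, a fibroblast covariate, fits of single comparisons, and leaving out arrays. Tyms and Cdc6 lay among the dimmest 40% of genes.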

Additional observations from a re-analysis of the deposited data

How the results depend on the processing

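Ccnd2 and Cdk6 were called higher between knockout and control in most but not all settings. The 2 genes called higher became 8 with array weights and 0 with the fibroblast covariate, and ranged from 1 to 4 when 1 array was left out. The 0 called lower became 1 with array weights and 2 each with the fibroblast covariate and the cell cycle covariate. Array weights called 35.2% of all genes in either direction, against 14.1% in the main fit. The fibroblast covariate called 10.7% and the cell cycle covariate 16.7%, and fits without 1 array called 5.14% to 27.5%. The median S-phase change of 0.10 became -0.42 (fibroblast covariate) and -0.40 (knockout replicate 3 alone), and the mitotic 0.42 became -0.51 and -0.41. With array weights these medians moved the other way, to 0.50 and 0.999. Between rescue and knockout, 1 gene was called higher with the fibroblast covariate and 1 with the cell cycle covariate, against 0. The 1 called lower became 2 with array weights and 2 with the cell cycle covariate, and 0 with the fibroblast covariate and with only the 2 groups compared. It ranged from 0 to 2 when 1 array was left out. Array weights called 13.5% of all genes in either direction, the fibroblast covariate 5.39% and the cell cycle covariate 3.04%, against 2.31% in the main fit. The mitotic median of 0.30 became 1.27 with knockout replicate 3 alone. Between rescue and control, 1 gene was called higher with array weights, against 0, where 1.95% of all genes were called, against 0.126%. The cause of these differences was not tested, except that fits without an array or with 2 groups hold fewer samples.

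With the replicate number as a block, 0 members were called lower between rescue and knockout, against 1, where 1.41% of all genes were called. In the same fit Ect2 no longer passed between knockout and control (adjusted p = 0.070). Same-numbered arrays had deviations that correlated between -0.22 and 0.40 over 9 pairs, and differently numbered arrays between -0.29 and 0.36 over 18 pairs. The ranges overlap and the labels give only a replicate number, so it stays unknown whether same-numbered arrays share anything more.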
